A study of Caenorhabditis elegans with 4 samples.

Results

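The MATH and BATH domain genes of *Caenorhabditis elegans* were followed through larval development of the *prg-1* mutant. Members were the genes whose listed name is *math-* or *bath-* with a number, which gave 49 *math* genes and 44 *bath* genes, 93 of the 46096 genes in each file. The families are described apart. The MATH domain (meprin and TRAF homology) is a fold that holds short peptides of other proteins. BATH proteins join it to a BTB domain, which binds the cullin CUL-3, so that the protein can bring a substrate to a CUL-3 ubiquitin ligase. MEL-26, the best known adaptor of this type in the worm, brings the microtubule-severing protein MEI-1 (katanin) to degradation after meiosis. Both families are greatly expanded in *Caenorhabditis*.

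The samples were whole worms of the *prg-1* mutant (*wm161*), mutated in the gene for the Piwi Argonaute PRG-1, grown at 20°C on OP50 bacteria and collected as L1, L2, L3 and L4 larvae. Poly(A) RNA was sequenced in 1 library per stage. Every group carried the same mutation and no wild-type library was analysed here, so the levels describe larval stages of the mutant and not the effect of *prg-1*. Levels are FPKM, a count of fragments divided by transcript length and by the size of the library, and the range in parentheses is the 95% interval that the authors' Cufflinks files give.

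*prg-1* itself was listed at 11, 11.7, 13 and 23.6 FPKM in the 4 libraries from L1 to L4, which without read positions or a wild type is no check of the mutation. The depth of the libraries relative to L1 was 1.005 at L2, 1.038 at L3 and 1.053 at L4, estimated from genes below 1 FPKM. The intervals hold the error of a single library, and the spread between cultures is not known. All 93 members had the status OK in every library and no FPKM of a member lay outside its own interval. A member listed at 0 has an interval of 0 to 0, which gives no upper limit. The 15 markers of muscle, intestine, neurons, epidermis and pharynx that were examined stood at 5.44 FPKM or more at each stage. The germline markers *glh-1*, *pgl-1*, *pgl-3* and *gld-1* summed to 31.9, 47.6, 63.6 and 143.6 FPKM over L1, L2, L3 and L4. In the same order, 3 yolk genes (*vit-2*, *vit-5*, *vit-6*) summed to 12.4, 1.02, 0.832 and 184.5 FPKM, and 3 major sperm protein genes (*msp-3*, *msp-19*, *msp-142*) to 31.1, 1.94, 1.11 and 11.7 FPKM. Sperm and yolk gene RNA was thus more abundant in the L1 library than at L2 or L3. In RNA from whole worms, a change in the number of cells of a type and a change of RNA per cell cannot be told apart.

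Most members lie together. On chromosome II, 46 of the 49 *math* genes are listed between 1026028 and 2155220 and 30 of the 44 *bath* genes between 1598029 and 3733203, as the files give the coordinates (build ce10, counted from 1). These 76 genes are called the members in the left part of chromosome II here, a grouping made after their positions were seen. The other 17 members, 3 *math* and 14 *bath* genes, are spread over the rest of chromosome II and over chromosomes I, III, IV, V and X. The reference annotation has 12 *math* and 8 *bath* genes as pseudogenes. Of the 93 members, 63 stand beside another member with no other protein-coding gene or pseudogene between them, in 15 runs of 2 or more genes. Related genes in tandem can share reads. How reads with several matches were treated is not stated in the sources used here, so the split of reads between neighbouring members is uncertain.

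In the *math* family, 6 genes stood at 10 FPKM or more at every stage and 23 stood below 1 FPKM at every stage. *math-33* (H19N07.2, chromosome V from 11113914 to 11118820), the worm relative of the deubiquitinase USP7 and thus a remover of ubiquitin rather than a ligase adaptor, was the highest member. In the 4 libraries from L1 to L4 it had 62.1 (58.4 to 65.4), 54.4 (51.1 to 56.8), 50.4 (47.3 to 52.2) and 53.8 (50.5 to 56.1) FPKM. Its interval at L1 lay above the other 3, which overlapped one another, and the highest level was 1.23 times the lowest. By level, *math-33* ranked 1850 at L4 among 16076 protein-coding genes above 0 and 1653 at L1 among 16366. It alone made up 22.0% of the summed *math* FPKM at L4 and 28.7% at L1. The listed span of *math-33* overlaps that of H19N07.3.

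The next *math* genes by mean level all lie in the left part of chromosome II. *math-27*, a pseudogene in the reference annotation, had 20.0 (16.7 to 23.4), 25.4 (20.6 to 28.8), 22.8 (18.5 to 26.6) and 25.1 (20.0 to 27.6) FPKM through L1, L2, L3 and L4, with intervals that all overlapped. *math-3*, whose span overlaps that of F36H5.14, had 19.1 (16.6 to 21.6), 16.5 (14.4 to 18.5), 20.2 (17.8 to 22.6) and 16.7 (14.4 to 18.9) FPKM in the same order, also with overlap throughout. *math-22*, *math-26* and *math-35* (the last a pseudogene) stayed between 9.94 and 15.4 FPKM at all stages. Each value of *math-22* lies near the top of its interval (15.4 (10.1 to 15.4) FPKM at L2), so that its level is uncertain.

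*math-41* and *math-20*, also among the 8 highest, moved in opposite directions. *math-41* had 23.5 (19.9 to 24.8), 22.4 (18.9 to 23.5), 16.5 (13.8 to 17.5) and 11.7 (9.65 to 13.1) FPKM through L1, L2, L3 and L4. Its intervals at L1 and L2 overlapped, the interval at L3 lay below both and that at L4 below all others. *math-20* had 7.24 (5.74 to 8.76), 14.4 (12.3 to 16.6), 13.3 (11.3 to 15.3) and 16.2 (14 to 18.4) FPKM in the same order. The L1 interval of *math-20* lay below the other 3, which overlapped one another. Over the 8 highest *math* genes, the highest stage was 1.16 to 2.24 times the lowest.

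**Figure D1:**
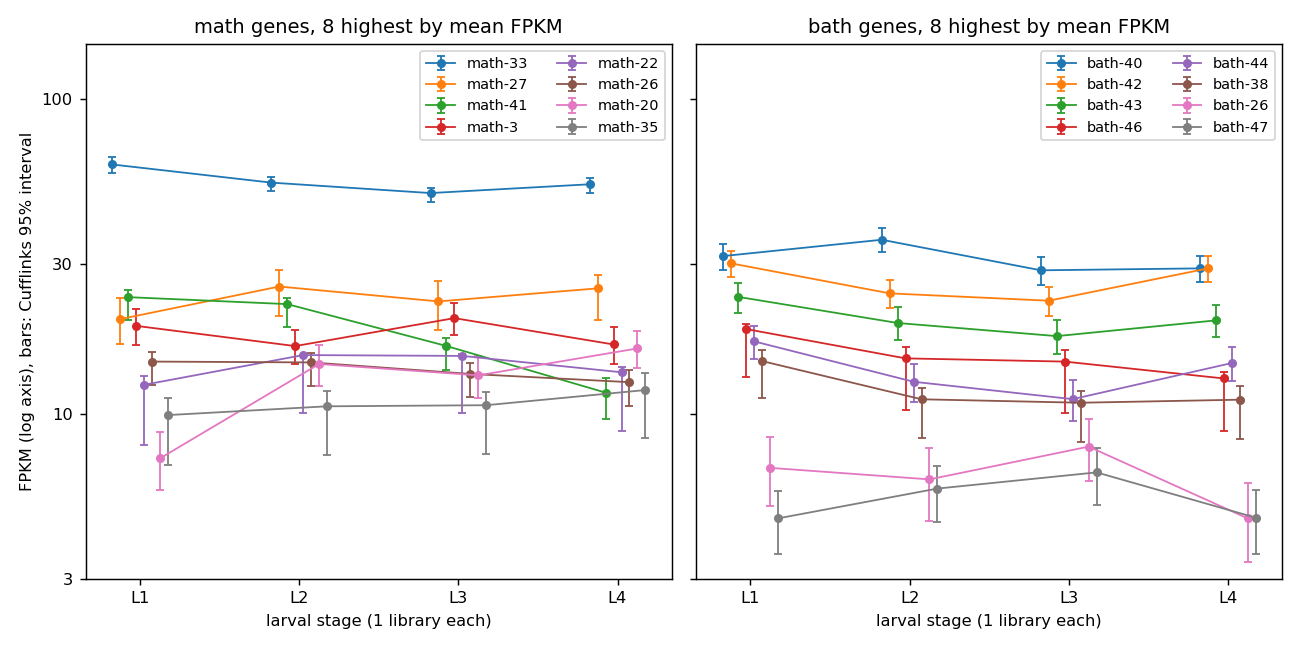
FPKM (log axis) of the 8 *math* genes (left) and 8 *bath* genes (right) with the highest mean, by larval stage, 1 library each, with bars for the Cufflinks 95% interval. *math-33* stands above all others at 50.4 to 62.1 FPKM, *math-41* is lower at L3 and L4, and *math-20* is lowest at L1.

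The 3 highest *bath* genes by mean level, *bath-40*, *bath-42* and *bath-43*, lie outside the left part of chromosome II. *bath-40* (Y105E8B.4, chromosome I from 14647780 to 14651457) had 31.8 (28.8 to 34.8), 35.8 (32.6 to 39), 28.6 (25.8 to 31.6) and 29.1 (26.2 to 31.9) FPKM over the 4 stages from L1 to L4. Its interval at L2 lay above those at L3 and L4. *bath-42* (C50C3.8, chromosome III from 8161449 to 8163385) had 30.2 (27.3 to 33), 24.2 (21.7 to 26.7), 22.9 (20.5 to 25.3) and 29 (26.3 to 31.8) FPKM in the same order. For *bath-42*, the intervals at L1 and L4 overlapped, and both lay above the interval at L3. *bath-43* (T16H12.5, chromosome III from 10090862 to 10098081), named *spop-1* in the reference annotation after the mammalian MATH and BTB adaptor SPOP, had 23.6 (21 to 26.2), 19.5 (17.2 to 21.9), 17.7 (15.5 to 19.9) and 19.9 (17.5 to 22.2) FPKM. Of its stages, L1 and L3 alone had intervals apart.

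*bath-44* (C07D10.2, chromosome II from 7394765 to 7397351) had the same order of stages as *bath-42*, with 17 (15 to 19.1), 12.7 (10.9 to 14.5), 11.2 (9.51 to 12.8) and 14.5 (12.7 to 16.4) FPKM, and its interval at L1 lay above those at L2 and L3. *bath-38* (F52H3.3, chromosome II from 10042859 to 10045189) had 14.7, 11.2, 10.9 and 11.1 FPKM over the same stages, with intervals that all overlapped. *bath-40*, *bath-42*, *bath-43*, *bath-44* and *bath-38* stayed at 10.9 FPKM or more in every library. *bath-40*, *bath-42* and *bath-43* together made up 45.9% of the summed *bath* FPKM at L4 and 48.9% at L1. *bath-41*, *bath-39* and *bath-36*, also outside the left part of chromosome II, stood between 0.934 and 4.18 FPKM at all stages.

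In the left part of chromosome II, 4 of the 30 *bath* genes (*bath-46*, *bath-26*, *bath-47* and *bath-9*) stood at 1 FPKM or more at every stage. *bath-46*, the fourth by mean level, had 18.6 (13.1 to 19.3), 15 (10.3 to 16.3), 14.7 (10.1 to 16) and 13 (8.83 to 13.6) FPKM through L1, L2, L3 and L4, with intervals that all overlapped. Each of its values lies near the top of its interval, and its listed span overlaps that of *bath-26*, so that the level of either is uncertain. *bath-26* had 6.75, 6.21, 7.89 and 4.66 FPKM and *bath-47* had 4.67, 5.8, 6.53 and 4.69 FPKM in the same order. Over the 8 highest *bath* genes, the highest stage was 1.25 to 1.69 times the lowest.

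Over all members, the median level of both families was low. Some *math* genes below the 8 highest were moderate: *math-4*, *math-18* and *math-24* had means of 9.19, 8.04 and 6.22 FPKM. The median *math* gene had 0.475, 0.981, 0.554 and 1.13 FPKM through L1, L2, L3 and L4 and the median *bath* gene 0.591, 0.621, 0.683 and 1.37 FPKM, against 3.43, 3.75, 3.52 and 3.87 FPKM for all protein-coding genes. An FPKM of 1 was reached by 20, 24, 22 and 25 *math* genes and by 14, 12, 18 and 25 *bath* genes in the same order. With the lower bound of the interval at 1 or more, the counts were 17, 19, 20 and 21 *math* genes and 12, 10, 10 and 14 *bath* genes, so that much of the larger *bath* count at L3 and L4 rests on genes whose interval reaches below 1.

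Throughout the 4 stages, 20 *math* genes (40.8%) and 11 *bath* genes (25%) stood at 1 FPKM or more, against 57.5% of all protein-coding genes. The other protein-coding genes listed on chromosome II below 4 Mb were also low, with medians of 0.187 to 0.287 FPKM and 32.1% at 1 FPKM or more throughout. By that measure, 18 of the 46 *math* genes there (39.1%) and 4 of the 30 *bath* genes (13.3%) stood at 1 FPKM or more. Of the 14 *bath* genes elsewhere, 7 did so (50%).

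Some pseudogenes had more than low values, although reads shared between related genes leave these levels, and the values of 0 below, uncertain. Of the 12 *math* pseudogenes, 4 stood at 1 FPKM or more at each stage, whereas none of the 8 *bath* pseudogenes reached 1 FPKM at any stage. Beside *math-27* and *math-35*, these were *math-47*, with 3.67, 4.53, 5.09 and 4.08 FPKM over L1, L2, L3 and L4, and *math-43* (chromosome X), with 1.99, 1.59, 2.15 and 2.12 FPKM. In all libraries, 7 *math* and 3 *bath* genes were listed at 0, of which *math-5*, *math-6*, *math-7*, *math-16* and *bath-31* are protein-coding in the reference annotation.

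Neighbouring members differed widely in level. The longest run, of 13 *math* genes between 1866386 and 1891699, held the expressed genes at one end. *math-15*, its first gene, stood at 6.44 FPKM at L4 and 2.22 at L1, *math-14* at 6.44 and 1.34, and *math-10* at 1.45 and 0.218. The other 10 genes of the run stayed below 1 FPKM at every stage, 7 of them listed at 0 throughout, among them its last gene, *math-12*. The next run, of 11 genes between 1896062 and 1922744, changes from *math* genes to *bath* genes. Its first gene, *math-25*, stood at 0.0763 (0 to 0.194) FPKM at L4 and 0.0803 (0 to 0.204) at L1. Its last *math* gene, *math-31*, stood at 0.602 (0 to 0.988) at L4 and 0 at L1. Within the same run, *math-22* reached 13.6 FPKM at L4 and 12.4 at L1. Its *bath* genes ran from *bath-11*, with 0.236 at L4 and 0.124 at L1, to *bath-2*, with 1.16 and 0.508.

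Some of the remaining runs showed the same mixture and others did not. The run of 4 *bath* genes from *bath-46* to *bath-33* ended in a gene listed at 0 at L4 and 0 at L1. *math-28* stood at 0.108 (0 to 0.26) FPKM at L4 and 0.328 (0.0787 to 0.611) at L1, with intervals that overlapped. *math-26*, at the other end of 3 genes, stood at 12.6 at L4 and 14.7 at L1. The pair *math-3* and *math-4* stood at 16.7 and 8.31 FPKM at L4 and at 19.1 and 8.6 at L1. Next to *math-41* were *math-40*, with 5.4 FPKM at L4 and 5.68 at L1, and *math-39*, with 6.76 and 3.17.

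Of the pair *math-47* and *math-48*, the second stood at 0.0348 (0 to 0.0963) FPKM at L4 and 0.0732 (0 to 0.169) at L1, with intervals that overlapped. *math-49* and *math-19*, the ends of 6 genes that include *math-20*, stood at 0.477 and 0.602 FPKM at L4 and at 0.419 and 0.352 at L1. The pair *math-42* and *math-35* stood at 2.0 and 11.9 FPKM at L4 and at 1.86 and 9.94 at L1. In several *math* runs, low and moderately expressed genes were therefore next to each other.

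The other ends of *bath* runs were at low levels. *bath-21* stood at 0.837 FPKM at L4 and 0.587 at L1, at the far end of 4 genes from *bath-5*. *bath-19* and *bath-20*, a pair, stood at 0.672 and 1.62 FPKM at L4 and at 0.157 and 0.865 at L1. *bath-24* and *bath-14*, which enclose *math-1* (0.412 FPKM at L4 and 0.3 at L1), stood at 1.55 and 0.596 FPKM at L4 and at 0.148 and 0.251 at L1. All of these genes had a higher value at L4, some by little, but of those given with values here only *bath-24* had L4 and L1 intervals apart. *bath-12* and *bath-18*, ends of 3 genes, stood at 0.352 and 0.858 FPKM at L4 and at 0.866 and 0 at L1. *bath-28*, beside *bath-30*, stood at 1.65 at L4 and 0.978 at L1, and *bath-23* was listed at 0 throughout, at the far end of 3 genes from *bath-9*.

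**Figure D2:**
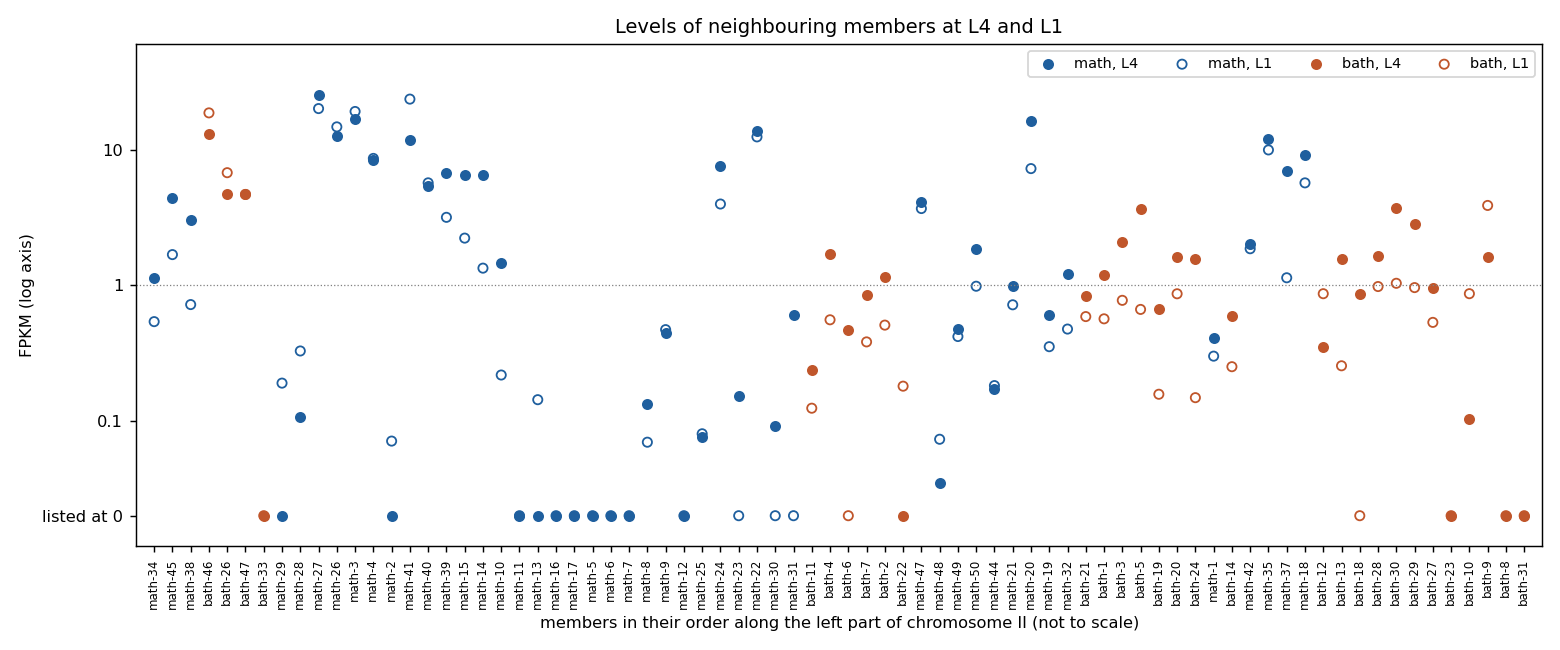
FPKM (log axis) at L4 (filled) and L1 (open) of the 76 members in the left part of chromosome II, in their order along it and not to scale, *math* in blue and *bath* in orange. *math-20*, at 16.2 FPKM at L4, stands beside *math-19* at 0.602 FPKM, and the *math* genes from *math-11* to *math-12* stay below 1 FPKM.

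With 1 library per stage no test was possible, and differences between stages were judged by a rule of size. A gene passed where its log2 difference, with 1 added to each FPKM, was 1 or more, the higher FPKM was 1 or more and the intervals did not overlap. Between adjacent stages almost no member passed, but only genes at 1 FPKM or more in either stage could. They were 24 *math* and 14 *bath* genes at L2 against L1 and 24 and 19 at L3 against L2. At L4 against L3 they were 25 of each family. At L2 against L1, no *math* or *bath* gene was higher (4.72% of all protein-coding genes) or lower (1.74%). At L3 against L2, none was higher (1.14%) or lower (2.17%). At L4 against L3, 1 *math* gene, *math-37*, and no *bath* gene was higher (2.56%) and no member was lower (0.355%).

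Between L1 and L4, some members of both families differed. At L4 against L1, 7 of 49 *math* genes (14.3%) and 4 of 44 *bath* genes (9.09%) were higher, against 7.11% of all protein-coding genes, and none of either family was lower, against 3.2%. Only genes that reach 1 FPKM can pass. Of those, 7 of 25 *math* and 4 of 25 *bath* genes were higher, against 10.4% of protein-coding genes at that level, of which 4.67% were lower. The *bath* share over all members is near that background. Members include pseudogenes and the background does not, and over protein-coding members alone the shares were 18.9% of 37 *math* and 11.1% of 36 *bath* genes. All 11 genes lie in the left part of chromosome II, as do 76 of the 93 members, and are protein-coding in the reference annotation. Among the other protein-coding genes listed on chromosome II below 4 Mb, 46 of 912 (5.04%) were higher at L4 than at L1. Only 386 of these 912 genes reached 1 FPKM at L1 or L4 and could pass. Of the 11 genes, 9 had a higher value at each later stage, an order favoured by choosing genes higher at L4 than at L1. Over all members, the median log2 difference at L4 against L1 was 0.07 for *math* and 0.08 for *bath* genes, against -0.01 for all protein-coding genes.

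*math-37* (R52.9, chromosome II from 2117059 to 2122181) had the largest log2 difference of the members. It had 1.13 (0.61 to 1.65), 2.4 (1.52 to 3.22), 2.56 (1.59 to 3.53) and 6.94 (5.04 to 8.41) FPKM through L1, L2, L3 and L4. The L4 interval lay above all others, and the level at L4 was 6.11 times that at L1 (3.06 to 13.8 by the bounds of the intervals), a log2 difference of 1.89 on the scale with the pseudocount. *math-14* (C16C4.4, chromosome II from 1869410 to 1870797) had 1.34 (0.531 to 2.16), 1.53 (0.63 to 2.45), 3.57 (2.38 to 4.77) and 6.44 (4.8 to 8.1) FPKM in the same order, with the interval at L4 above the other 3. Its level at L4 was 4.82 times that at L1 (2.22 to 15.3 by the bounds). *math-15*, its neighbour, had 2.22 (1.15 to 3.19), 3.21 (1.85 to 4.41), 4.61 (2.74 to 5.81) and 6.44 (4.13 to 8.26) FPKM. For *math-15*, only the L4 and L1 intervals were apart.

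*math-38* (T07H3.3) had 0.72 (0.309 to 1.11), 1.0 (0.492 to 1.48), 1.8 (1.07 to 2.5) and 3.01 (1.94 to 4.05) FPKM through L1, L2, L3 and L4, and its level at L4 was 4.18 times that at L1. *math-20*, described above, stood at 16.2 FPKM at L4 and 7.24 at L1, a ratio of 2.24 (1.6 to 3.21 by the bounds), and most of that difference was present at L2. *math-45* and *math-10* passed narrowly, each with a log2 difference close to the threshold of 1. *math-45* had 1.68, 1.8, 3.42 and 4.38 FPKM and *math-10* had 0.218, 0.433, 0.63 and 1.45 FPKM over the 4 stages from L1 to L4.

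The 4 *bath* genes higher at L4 were all low at L1. *bath-5* (F59H6.11, chromosome II from 2030750 to 2031944) had 0.663 (0.177 to 1.15), 0.769 (0.263 to 1.23), 1.6 (0.766 to 2.38) and 3.67 (2.1 to 4.78) FPKM through L1, L2, L3 and L4. The L4 interval of *bath-5* lay above those of L1 and L2 and overlapped that of L3, and its level at L4 was 5.54 times that at L1 (1.83 to 27.1 by the bounds). *bath-30* (F14D2.12, chromosome II from 3345280 to 3346371) had 1.03 (0.375 to 1.69), 0.988 (0.373 to 1.59), 1.51 (0.723 to 2.26) and 3.74 (2.14 to 4.9) FPKM, with the same pattern of overlap. *bath-24* had 0.148 (0 to 0.332), 0.295 (0 to 0.551), 0.429 (0.107 to 0.854) and 1.55 (0.632 to 2.42) FPKM and *bath-13* had 0.255 (0 to 0.494), 0.38 (0 to 0.687), 0.614 (0.19 to 1.05) and 1.57 (0.75 to 2.34) FPKM in the same order. At L1 the intervals of *bath-24* and *bath-13* reach 0, so their ratios to L1 have no upper bound.

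**Figure D3:**
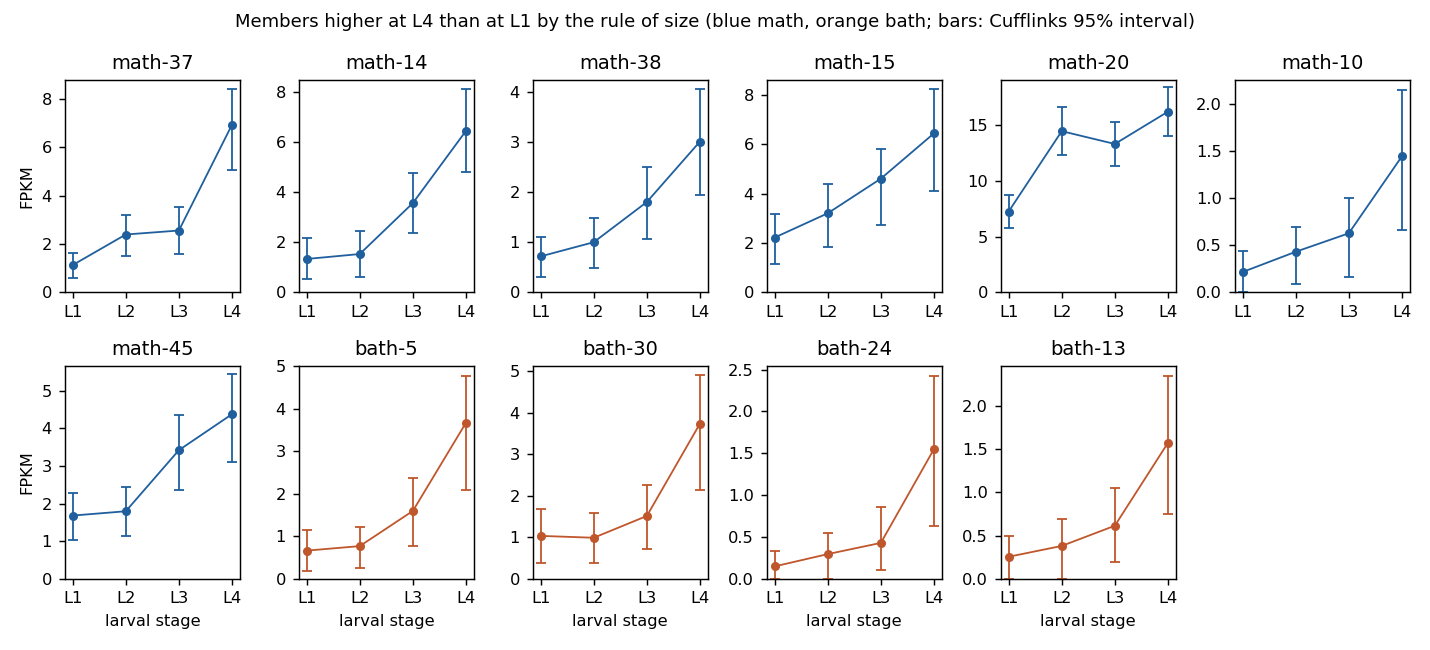
FPKM by larval stage of the 11 members higher at L4 than at L1 by the rule of size, 7 *math* genes in blue and 4 *bath* genes in orange, with bars for the Cufflinks 95% interval and an axis from 0 for each gene. In 9 of the 11 each later stage has a higher value, whereas *math-20* stands at 13.3 to 16.2 FPKM from L2 on and *bath-30* is level over L1 and L2.

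The comparison with L1 rests on a library that also held more sperm and yolk gene RNA than L2 or L3. With L2 as the earlier library, 3 *math* genes (*math-37*, *math-14*, *math-38*) and 4 *bath* genes (*bath-5*, *bath-30*, *bath-3*, *bath-29*) were higher at L4, against 3.68% of all protein-coding genes, and none was lower (1.72%). Thus 3 of the 7 *math* and 2 of the 4 *bath* genes higher than at L1 were also higher than at L2. Of these, *math-38* passed narrowly against L2, with a log2 difference of 1.001. *bath-29* stood at 2.83 (1.67 to 3.99) FPKM at L4 and 0.627 (0.108 to 1.24) at L2, and *bath-3* at 2.1 (1.09 to 3.02) at L4 and 0.44 (0.0878 to 0.79) at L2. The 4 germline markers summed to 143.6 FPKM at L4, against 31.9 at L1, and the 3 yolk genes to 184.5 FPKM, against 12.4. All 7 of these markers were higher at L4 than at L1 by the rule. The 3 sperm genes went the other way, summing to 11.7 FPKM at L4 and 31.1 at L1, and 1 of them, *msp-19*, was lower by the rule. At L1 *msp-19* was listed at 16.7 FPKM, above its own interval (7.24 to 13.5), so that its level there is uncertain. The part of germline RNA in the levels of the members was not tested.

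By non-overlapping intervals alone, without a minimum of size, 9 *math* and 6 *bath* genes were higher at L4 than at L1 (12.4% of all protein-coding genes), and 2 of each family were lower (15.7%). Of the 6 *bath* genes, *bath-6* and *bath-18* are pseudogenes listed at 0 at L1, where the interval has no upper limit, so that their intervals could not overlap once the lower bound at L4 was above 0. The lower *math* genes were *math-33* and *math-41*. *math-41* stood at 11.7 FPKM at L4 and 23.5 at L1, a log2 difference of -0.95. The lower *bath* genes were *bath-9* and *bath-10*, neighbours in the left part of chromosome II. *bath-9*, whose listed span overlaps that of Y49F6C.2, had 3.87 (2.62 to 5.24), 1.81 (0.906 to 2.72), 1.54 (0.659 to 2.42) and 1.62 (0.757 to 2.49) FPKM through L1, L2, L3 and L4. *bath-10* had 0.866 (0.347 to 1.3), 0.646 (0.173 to 1.04), 0.626 (0.167 to 1.0) and 0.103 (0 to 0.247) FPKM in the same order. These 4 genes ran against the direction of the members that passed the rule.

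By position, the *bath* genes differed at L4 against L1. The median log2 difference was 0.38 over the 30 *bath* genes in the left part of chromosome II (20 above 0, 6 below) and -0.08 over the 14 elsewhere (4 above 0, 10 below). The *math* genes in the left part had a median of 0.10 over 46 genes. Against other libraries the *bath* groups were closer. At L4 against L2 the medians were 0.42 in the left part and 0.16 elsewhere, and at L4 against L3 they were 0.20 and 0.24, in the opposite order, with a median of 0 over all protein-coding genes in both comparisons. Of these 3 comparisons the groups stood furthest apart in that with the L1 library, and the difference between them was not tested.

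**Figure D4:**
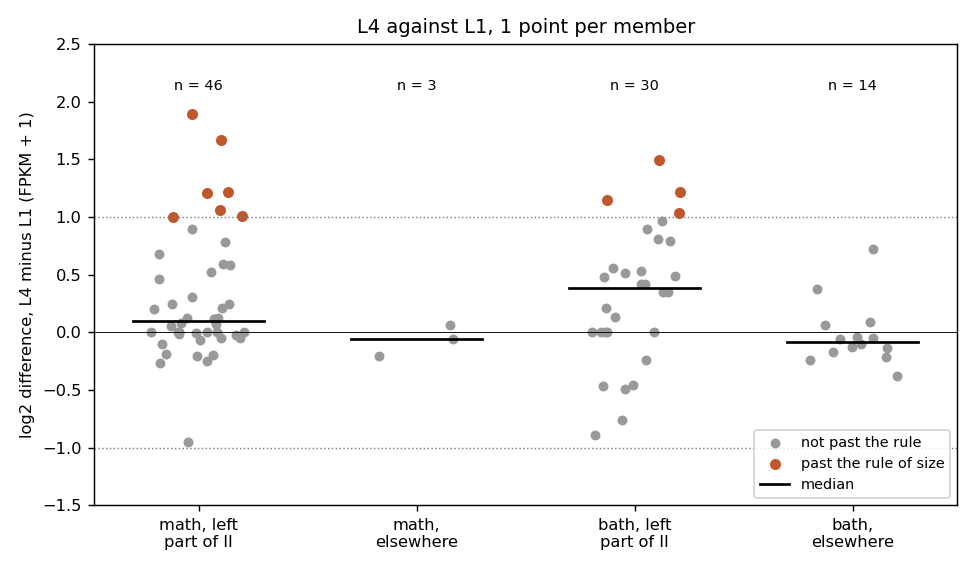
Log2 difference of L4 minus L1 (FPKM with a pseudocount of 1), 1 point per member, for *math* and *bath* genes in the left part of chromosome II and elsewhere, with black lines for the medians and dotted lines at the threshold. The 11 orange points past the rule of size all belong to the left part of chromosome II, which holds 76 of the 93 members. The *bath* median there is 0.38, against -0.08 for the *bath* genes elsewhere.

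Of the genes above 0 in at least 1 library, L4 was the stage with the highest FPKM for 14 of 42 *math* genes (33.3%) and 20 of 41 *bath* genes (48.8%), against 22.4% of 17627 protein-coding genes. Among *bath* genes this was so for 17 of 27 in the left part of chromosome II (63.0%) and for 3 of 14 elsewhere (21.4%), of which 8 were highest at L1. For the other protein-coding genes listed on chromosome II below 4 Mb the share with L4 highest was 24.4%. These shares are descriptions of single libraries. Of the 34 members with L4 highest, 32 had an L4 interval that overlapped that of at least 1 earlier stage, and 17 one that overlapped those of all earlier stages.

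**Figure D5:**
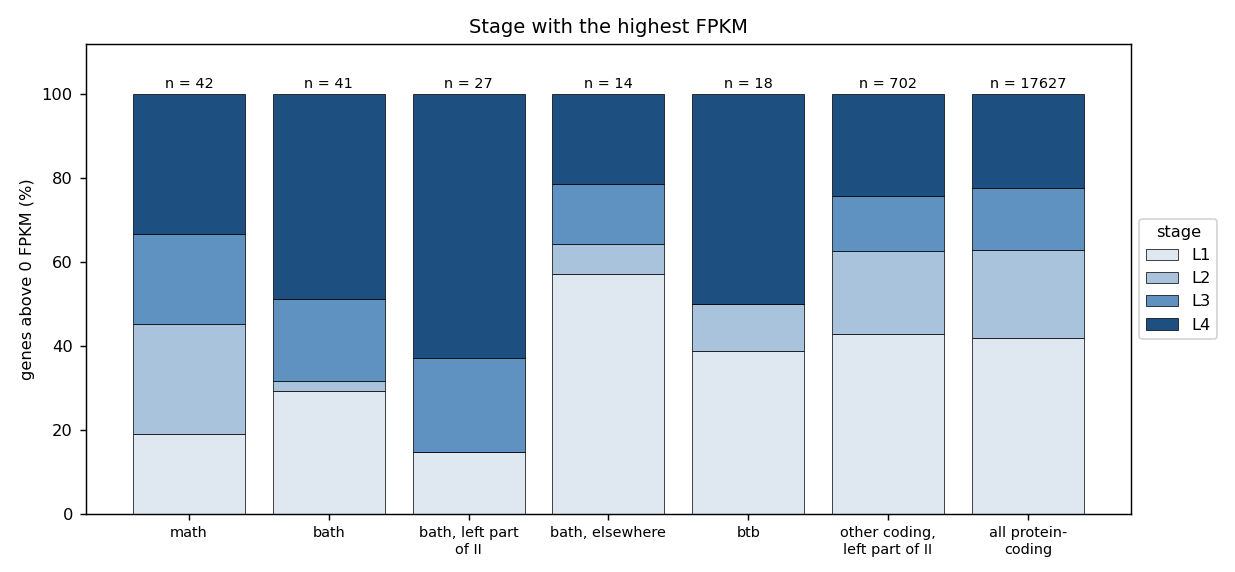
Percent of genes (those above 0 FPKM in at least 1 library) with their highest FPKM at L1, L2, L3 or L4. L4 is the highest stage for 63.0% of *bath* genes in the left part of chromosome II and 21.4% of *bath* genes elsewhere. It is the highest for 50% of the 18 *btb* genes and 22.4% of all protein-coding genes.

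The 21 *btb* genes, named for the BTB domain alone, had medians of 0.228 to 0.459 FPKM, and 1 of them was higher at L4 than at L1 by the rule (7.11% of all protein-coding genes). L4 was the highest stage for 9 of the 18 *btb* genes above 0.

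Of the CUL-3 pathway, 19 genes were listed, from the CUL-3 ligase, the NEDD8 pathway that activates cullins, the COP9 signalosome that removes NEDD8, and katanin. None was higher between adjacent stages by the rule (1.14% to 4.72% of all protein-coding genes) or lower (0.355% to 2.17%). At L4 against L1, 1 was higher (7.11%) and none lower (3.2%), counts near the background. *cul-3*, the scaffold, had 40.9, 34.8, 36 and 40.0 FPKM through L1, L2, L3 and L4. *rbx-1*, its RING subunit, had 90.0, 72.4, 70.6 and 81.1 FPKM. Both were highest at L1, with L1 intervals that overlapped those at L4. *mel-26*, the adaptor for katanin, had 32.3, 26.7, 28.8 and 24.6 FPKM and *mei-1*, its substrate, 8.85, 7.76, 7.24 and 8.83 FPKM in the same order. The gene that passed was *mei-2*, the partner of *mei-1* in katanin, with 1.61, 0.799, 2.1 and 4.36 FPKM. It passed narrowly, with a log2 difference of 1.04, an L4 lower bound of 2.59 and an L1 upper bound of 2.46. *ned-8* and *ubc-12*, of the NEDD8 pathway, had FPKM above their own intervals at every stage, so that their levels are uncertain.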

How the data were processed

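According to the submitters' notes, the authors mapped reads with TopHat2 (2.0.8) to build ce10 and estimated FPKM with Cufflinks (2.1.1). The deposited values are FPKM per gene with a 95% interval and a status. For the annotation version, strand and reads with several matches, the sources used here give nothing. Members were taken by name, with values of status OK only. Biotypes came from RefSeq and Ensembl (WBcel235), by sequence name for 44815 of 46096 genes. 19503 genes were protein-coding and formed the background. Coordinates are those of the files. With 1 library per stage no p-value was computed, and stages were compared by the rule of size given above. Python (3.11.15), numpy (2.4.6), pandas (2.3.3) and matplotlib (3.10.9) were used, and the rule was checked on simulated data. That check took genes at 1 FPKM or more and held no spread between cultures, so it says nothing of that spread or of lower genes. Members, lists and rule were chosen with earlier results of these data known. Named members are the 8 highest of each family, those that passed the rule, and the ends of runs, while others were named after their values were seen. Alternatives changed the pseudocount, filter, scaling, intervals and fold. The use of L2 as the earlier library, of protein-coding members, of members without overlap and of members at 1 FPKM or more was added after seeing the data. No sequences were used here.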

Additional observations from a re-analysis of the deposited data

How the results depend on the processing

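No paired analysis was possible because there was 1 library per stage. The counts at L4 against L1 (7 *math* and 4 *bath* genes higher, none lower) were as follows where they moved by over 1.5 times. At 4-fold in place of 2-fold, 0 *math* and 0 *bath* genes were higher at L4 than at L1 and 0 *math* genes at L4 than at L3, fewer by construction. With a pseudocount of 0.1, 1 *math* gene (*math-41*, -1.0) and 1 *bath* gene (*bath-9*, -1.21) were lower at L4 than at L1. With L2 as the earlier library, 3 *math* genes were higher at L4. Median-ratio rescaling raised FPKM ratios by 0.12 (log2) at L2 against L1 and by 0.12 at L4 against L1, less on the scale with the pseudocount (medians at L4 against L1 of 0.13 for *math* and 0.13 for *bath* genes), and 1 *math* gene (*math-20*, 1.01) was then higher at L2 than at L1. Rescaled to a sum of 1000000, 6 *bath* genes were higher at L4 than at L1. Leaving out the intervals changed none of the counts, and leaving out pseudogenes or members that overlap another gene changed none of those at L4 against L1. With a pseudocount of 0.1, the log2 differences of *math-10*, *bath-5*, *bath-24* and *bath-13* at L4 against L1 were 2.28, 2.31, 2.73 and 2.24, since that pseudocount shrinks low values less. The *bath* median at L2 against L1, -0.05, was 0 after median-ratio rescaling. With a pseudocount of 1 a member below 1 FPKM at every stage cannot pass by arithmetic, so leaving out the filter could change nothing and the rule says nothing of such members.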
